A study of Homo sapiens with 4 samples.

Results

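The interferon-stimulated genes described here are 41 protein-coding genes that cells induce through interferon signalling. They were chosen by gene name from the count tables of U87MG, an established human glioblastoma cell line, and all 41 were found among the 29387 genes listed for every library. U87MG cells had spent 1 week on organotypic brain slices, in medium for neural stem cells to which FGF and EGF were added, after which cells were recovered and grown in dishes for 3 to 5 days. Invasive 1 and invasive 2 are populations recovered for having invaded the slices. Control 1 and control 2 are poorly invasive populations recovered from slice cultures, each the partner of the invasive population of its number. All 4 populations thus share the parental line, grown in DMEM with serum, and the time on slices, and no untreated or interferon-treated culture was analysed here. The labels call the invasive populations independently derived clones without saying whether each grew from a single cell, and they do not name the species of the slices. Each population is 1 polyadenylated RNA library, so n = 2 per group, and p-values measure only the spread between these libraries.

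Type I and type III interferons bind cell-surface receptors whose kinases JAK1 and TYK2 phosphorylate STAT2, which with IRF9 forms part of the factor ISGF3. ISGF3 binds the interferon-stimulated response element, a GAAA repeat in the promoters of its target genes. The products sense foreign or misplaced nucleic acids, block viral replication or modify proteins with the ubiquitin-like protein ISG15. In many tumour lines some of these genes are transcribed without added interferon.

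Total counts were 15466900 and 13829871 in invasive 1 and invasive 2, against 17817756 and 15444104 in control 1 and control 2, so 3 counts, the limit that a count of 0 allows, correspond to 0.168 to 0.217 counts per 1000000 total counts (CPM). These limits cover counting error only. Of 8 glial and glioblastoma markers, 4 passed the low-count filter. VIM, an intermediate filament gene of mesenchymal and glioma cells, had 113467 and 117410 counts in the invasive libraries and 145137 and 117016 in the control libraries, and the hyaluronan receptor CD44 had 24032 and 24272 in the invasive libraries and 38230 and 33388 in the control libraries. NES, an intermediate filament gene of neural progenitors, had 521 and 217 counts in the invasive libraries and 739 and 301 in the control libraries, and the glial factor OLIG2 had 9 to 31. GFAP, S100B, SOX2 and FABP7 had 0 to 5. The 9 leukocyte and microglia markers summed to 18.8 and 11.1 CPM in the invasive libraries and 21.9 and 11.7 CPM in the control libraries, nearly all of it from CSF1R, with 280 and 140 counts in the invasive libraries and 379 and 167 in the control libraries. PTPRC had at most 1 count, P2RY12 and CD3E had 0, and ITGAM, CD14, CX3CR1 and CD79A had 0 to 8. The 8 markers of other brain slice cells summed to 5.82 and 6.22 CPM in the invasive libraries and 9.65 and 6.22 CPM in the control libraries, most of it from the neuronal gene SYT1, with 74 and 76 counts in the invasive libraries and 134 and 78 in the control libraries. The endothelial gene PECAM1 had 7 to 17 counts and the myelin gene MBP 3 to 19, while MOG, AQP4 and CLDN5 had 0 in every library. The part of these markers in the results was not tested. A list of 12 inflammatory genes driven by NF-kB summed to 223 and 326 CPM in the invasive libraries, against 168 CPM in control 1 and 2706 CPM in control 2. Most of the sum in control 2 came from CSF3, IL1B, CXCL8 and LIF, and CCL2 was the 1 gene of the 12 that was not highest there.

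Promoters of 33 of the 41 genes were matched in RefSeq (GRCh38.p14, 250 bases before to 50 after each start). The element core, meaning GAAA and GAAA parted by any 2 bases on either strand, was present in 20 of the 33 (60.6%), against 996 of 27305 promoters of the same length overall (3.65%). A shorter core, AANNGAAA, which every element core also contains and which was added after the data were seen, was present in 26 (78.8%), against 23.2% of all promoters. A match is a description of these letters and does not show that a factor binds there. Below are promoters of 4 genes that differ in direction in these cells, with each element core in capitals: IFI6 and ISG15 had more counts in each invasive library than in its control, and OAS1 and IFI44L had fewer. IFI6 lies at chr1:27672143-27672442 on the minus strand, ISG15 at chr1:1013247-1013546, OAS1 at chr12:112906712-112907011 and IFI44L at chr1:78620198-78620497, the last 3 on the plus strand.
IFI6: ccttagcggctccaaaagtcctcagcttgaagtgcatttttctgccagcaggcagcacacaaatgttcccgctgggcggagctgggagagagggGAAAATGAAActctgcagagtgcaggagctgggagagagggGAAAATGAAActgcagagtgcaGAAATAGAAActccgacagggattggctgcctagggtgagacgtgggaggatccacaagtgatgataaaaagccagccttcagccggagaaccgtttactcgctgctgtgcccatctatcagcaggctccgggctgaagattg
ISG15: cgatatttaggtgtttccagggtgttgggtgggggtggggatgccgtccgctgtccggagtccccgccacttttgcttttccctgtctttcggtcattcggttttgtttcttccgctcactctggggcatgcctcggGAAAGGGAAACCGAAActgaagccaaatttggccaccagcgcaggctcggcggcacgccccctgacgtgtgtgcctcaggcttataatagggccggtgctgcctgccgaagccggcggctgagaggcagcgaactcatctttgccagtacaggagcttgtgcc
OAS1: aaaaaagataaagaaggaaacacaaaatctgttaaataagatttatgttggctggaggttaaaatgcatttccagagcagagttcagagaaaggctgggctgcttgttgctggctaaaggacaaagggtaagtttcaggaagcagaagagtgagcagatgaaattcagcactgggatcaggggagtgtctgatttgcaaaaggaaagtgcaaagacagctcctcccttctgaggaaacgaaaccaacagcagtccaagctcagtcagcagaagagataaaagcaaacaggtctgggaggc
IFI44L: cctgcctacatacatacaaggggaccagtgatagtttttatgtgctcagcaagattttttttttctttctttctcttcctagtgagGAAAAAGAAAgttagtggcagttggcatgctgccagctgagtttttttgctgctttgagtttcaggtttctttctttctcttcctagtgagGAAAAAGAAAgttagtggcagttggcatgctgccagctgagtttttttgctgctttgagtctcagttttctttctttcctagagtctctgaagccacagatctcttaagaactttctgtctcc
The IFI6 window held 3 matches, of which those that begin 156 and 115 bases before the start have the same letters. In ISG15 the matches that begin 113 and 107 bases before the start overlap. In IFI44L, matches with identical letters begin 164 and 73 bases before the start. OAS1 had no core as defined in this window and held 2 of the shorter cores. Its window does hold gaaacgaaa, a GAAA repeat parted by only a C, which the definition leaves out. Cores occurred in genes of either direction. Of the tested genes with a matched promoter, the 18 with an element core had a median log2 fold change of -0.07 between invasive and control libraries. The 11 without a core as defined, OAS1 among them, had 0.03.

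The CPM of the 41 members summed to 1327 and 1100 in the invasive libraries, against 1169 and 1240 in the control libraries, so that invasive 1 was highest and invasive 2 lowest and the groups overlapped. LGALS3BP alone supplied 25.1% and 23.3% of that sum in the invasive libraries and 22.8% and 19.6% in the control libraries. On a per-length scale (TPM from exon lengths of GENCODE 29), the 37 members that passed the low-count filter had a median percentile of 43.6 among genes that also passed it, and 16 of them lay above the middle. The other 4 members, with 0 to 8 counts, are not in that ranking. LGALS3BP was at the 96.8th percentile, UBE2L6 at the 91.3rd, IFI16 at the 85.1st and IFI44 at the 85.0th, whereas ISG20, XAF1, MX1, MX2 and OAS1 lay below the fifth.

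**Figure D1:**
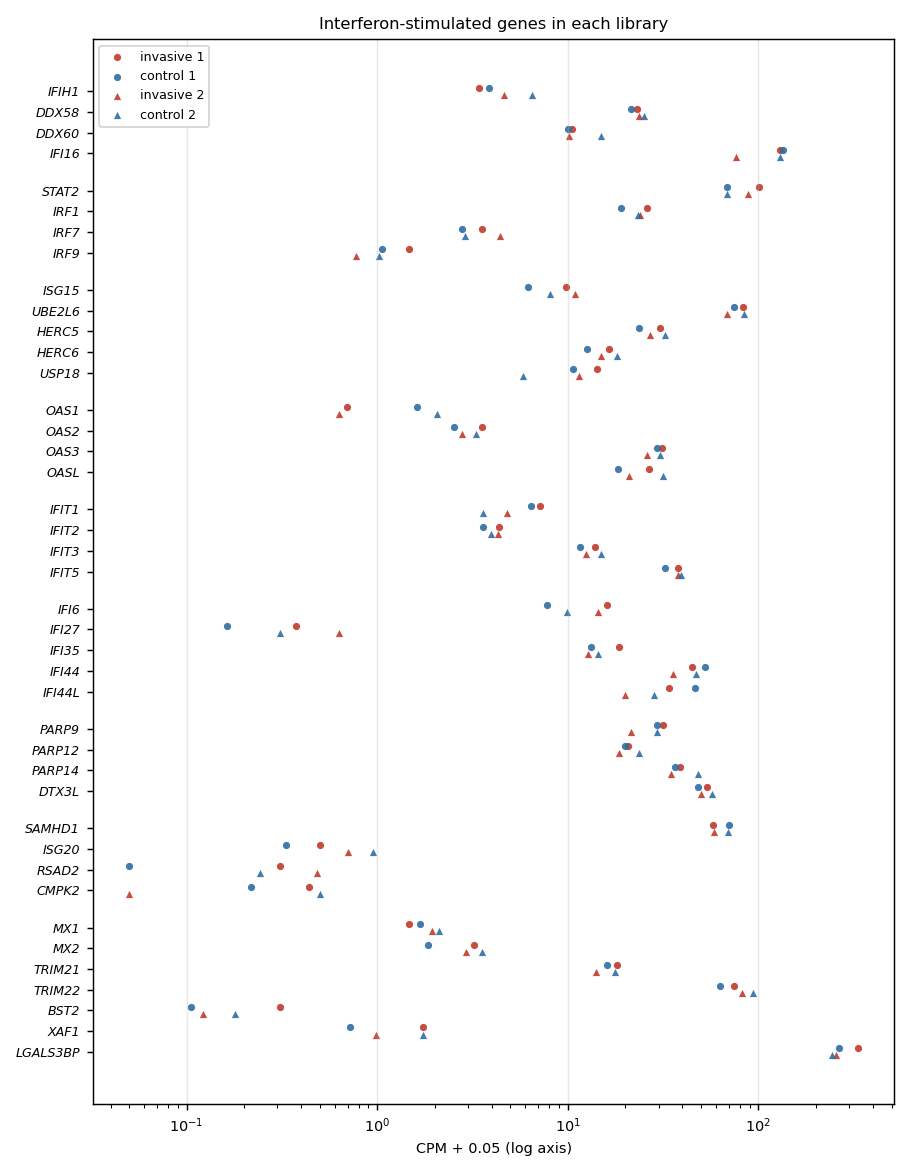
Each row is an interferon-stimulated gene and each point a library, in CPM with 0.05 added, on a log axis; circles are pair 1, triangles pair 2, red invasive and blue control. LGALS3BP lies above 240 CPM in every library, and in the OAS1 row both red points lie left of both blue points.

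Whether invasion went with a change in interferon-stimulated transcription was tested with edgeR's quasi-likelihood test, which compares invasive with control libraries within pairs over 14231 genes. None of the 37 tested members passed an adjusted p of 0.05 in either direction, beside 0.239% of all tested genes called higher and 0.0351% called lower. The smallest adjusted p was 0.12 (STAT2). At an unadjusted p under 0.05 there were 4 members higher (STAT2, IFI6, USP18 and ISG15), beside 9.82% of all genes, and 4 lower (OAS1, IFI44L, IFI44 and SAMHD1), beside 8.41%. Together they are 21.6% of the 37, near the 18.2% of all genes. DESeq2 also called none. With no filter on low counts, 6 of the 41 members passed, IFI6, USP18 and STAT2 higher and OAS1, IFI16 and IFI44L lower. In that setting 25577 genes were tested, and the calls over all of them became 760 higher and 693 lower. The genes added there have low counts, whereas the 6 members had passed the filter, so the shares called are not comparable. With total counts as the only scaling, STAT2 passed (edgeR adjusted p = 0.0386). The median log2 fold change of the members was -0.02, beside 0.01 for all genes, and 18 of 37 were above 0, beside 50.8% of all genes. The 95% interval lay within 2-fold either way for 29 members, as it did for 76% of all genes, so for 8 members these libraries do not bound the change to that range.

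**Figure D2:**
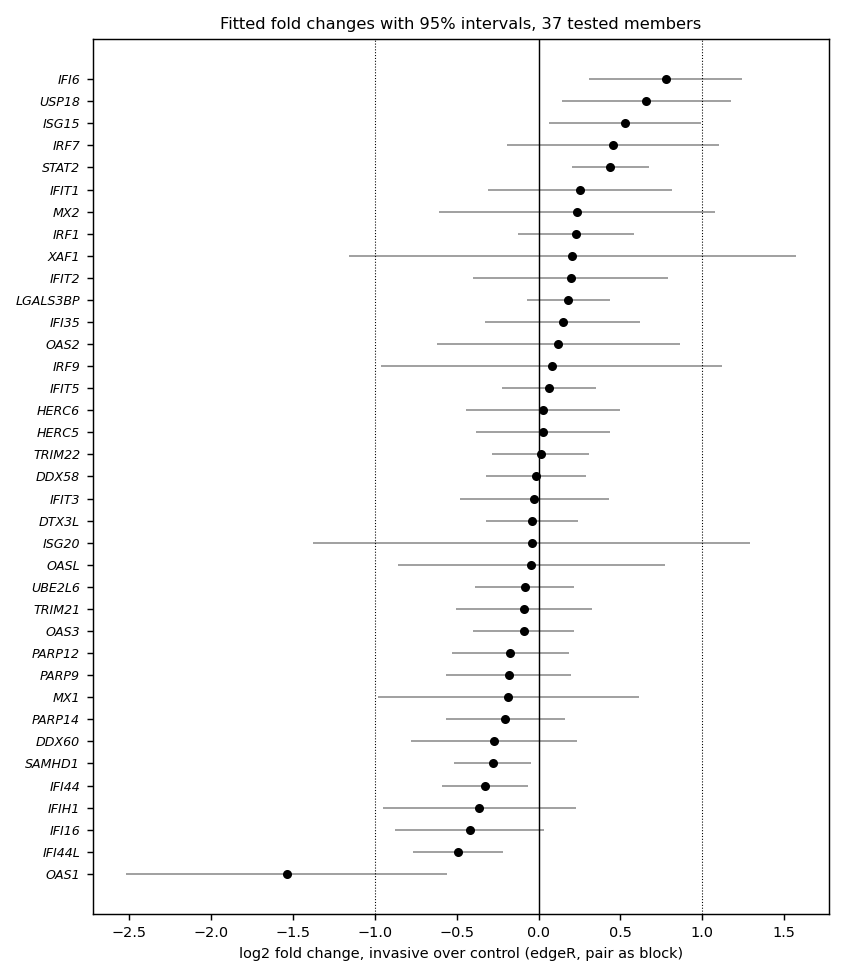
Log2 fold change of invasive over control libraries with its 95% interval for the 37 tested members, ordered by size; the dotted lines mark a 2-fold change. IFI6 is at the top with 0.78 and OAS1 at the bottom with -1.54, and 29 of the 37 intervals include 0, beside 81.8% of all genes.

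After TMM scaling, both invasive libraries exceeded both controls for 7 members (IFIT2, ISG15, IFI6, USP18, STAT2, IRF1 and IRF7), beside 21.8% of all genes. They lay below both for 4 (OAS1, IFI16, IFI44 and SAMHD1), beside 21.6%. Both shares of the 37 were smaller than those of all genes. In bulk RNA, fewer cells transcribing a gene and less RNA per cell cannot be told apart for any of these values.

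No interferon transcript was seen among the ligands that could be read. IFNB1, IFNE and IFNL1 had 0 counts in every library, and IFNA2, IFNL2 and IFNL3, listed for pair 1 alone, had 0 counts in invasive 1 and control 1. IFNA1, IFNK and the interferon gamma gene IFNG were not listed for any library, so their levels are unknown. The receptor subunits and kinases were transcribed. On the per-length scale, the type I receptor subunit IFNAR1 averaged 70.9 ± 7.73 TPM in invasive and 77.0 ± 11.1 TPM in control libraries (SD, n = 2 each), and its partner IFNAR2 averaged 11.5 ± 1.30 TPM in invasive and 12.1 ± 1.07 TPM in control libraries. JAK1 averaged 193 ± 12.2 TPM in invasive and 192 ± 23.6 TPM in control libraries, and TYK2 averaged 54.5 ± 5.03 TPM in invasive and 46.6 ± 8.05 TPM in control libraries. For the interferon gamma receptor, IFNGR1 averaged 25.0 ± 2.66 TPM in invasive and 28.3 ± 8.57 TPM in control libraries, and IFNGR2 averaged 32.5 ± 7.49 TPM in invasive and 30.0 ± 6.71 TPM in control libraries. None of the 10 tested receptor and JAK-STAT genes passed the test, and their largest fitted change was TYK2 (log2 fold change 0.23 ± 0.10 SE, edgeR adjusted p = 0.293).

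Of the factors that these receptors activate, STAT2 is a member. It had 1556 and 1218 counts in invasive 1 and invasive 2, against 1227 and 1055 in control 1 and control 2. In CPM this is 101 and 88.1 in the invasive libraries, against 68.9 and 68.3 in the control libraries. The controls were nearly equal and both invasive libraries lay above them. The log2 fold change was 0.44 ± 0.10 (SE, 95% interval 0.21 to 0.67), with an unadjusted p of 0.00331 and an adjusted p of 0.12 in edgeR's test, and the difference was positive in both pairs (0.51 and 0.36). STAT3, which interleukin 6 family receptors activate, had 93.6 and 83.5 CPM in the invasive libraries and 87.6 and 81.3 CPM in the control libraries.

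IRF9, the DNA-binding subunit of ISGF3, was counted far below STAT2: 22 and 10 counts in the invasive libraries and 18 and 15 in the control libraries. Per length this is 1.13 ± 0.528 TPM in invasive and 1.05 ± 0.0311 TPM in control libraries, whereas STAT2 averaged 61.8 ± 6.17 TPM in invasive and 45.3 ± 0.332 TPM in control libraries. However, 48.4% of its exonic length is shared on the same strand with a second gene identifier that also carries the name IRF9, which had at most 3 counts, and how reads in the shared exons were assigned is not stated. The level of IRF9 is therefore uncertain, and the part of the overlap in it was not tested. IRF7, the factor that amplifies type I interferon transcription, had 3.49 and 4.34 CPM in the invasive libraries and 2.75 and 2.85 CPM in the control libraries, without overlap (log2 fold change 0.46 ± 0.27 SE, adjusted p = 0.417). IRF1, induced mainly by interferon gamma, had 26.0 and 23.9 CPM in the invasive libraries and 18.9 and 23.3 CPM in the control libraries, where invasive 2 and control 2 nearly coincide. Transcripts of C5orf56 overlap 22.0% of the IRF1 exons on the opposite strand and had 44 to 54 counts. IRF3, the constitutive factor downstream of the sensors, had 43.4 and 40.6 CPM in the invasive libraries and 48.6 and 40.7 CPM in the control libraries.

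**Figure D3:**
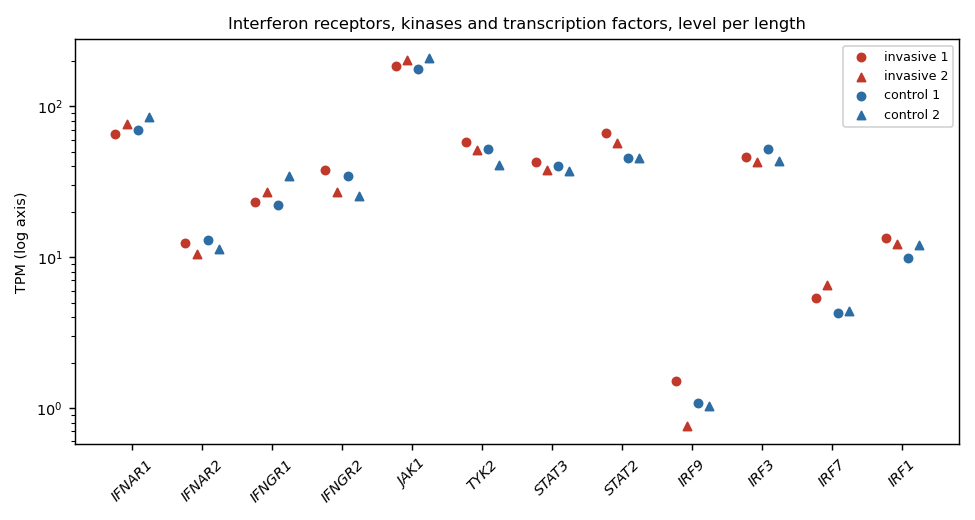
Level per length (TPM, log axis) of interferon receptor subunits, kinases and transcription factors in each library; circles are pair 1, triangles pair 2, red invasive and blue control. STAT2 has both red points above both blue points, and IRF9 lies near 1 TPM in every library.

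Of the 4 nucleic acid sensors among the members, IFI16, a nuclear and cytosolic DNA sensor, had the most CPM. It had 130.3 and 76.6 CPM in invasive 1 and invasive 2, against 135 and 129.8 CPM in control 1 and control 2. Invasive 2 alone was low, and invasive 1 lay between the controls in CPM and just below both after TMM scaling. The ratio of invasive to control was 0.942 (counting interval 0.888 to 1.00) in pair 1 and 0.589 (0.546 to 0.635) in pair 2, and the fitted log2 change was -0.42 ± 0.18 (SE, edgeR adjusted p = 0.301). It was -0.82 without invasive 1 and -0.049 without invasive 2. The RNA sensors IFIH1 and DDX58 (RIG-I) and the helicase DDX60 had log2 fold changes of -0.36, -0.02 and -0.27, with no call. The sign of DDX58 turned, to 0.00, with total counts as the only scaling. All 4 sensors were lower in invasive 2 than in control 2, whereas 2 of them were higher in invasive 1 than in control 1.

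The ISG15 system attaches the ubiquitin-like ISG15 to proteins. ISG15 itself had 9.70 and 10.9 CPM in the invasive libraries, against 6.17 and 8.03 CPM in the control libraries. Each invasive library lay above both controls (log2 fold change 0.53 ± 0.19 SE, 95% interval 0.06 to 0.99, edgeR adjusted p = 0.231). USP18, which removes ISG15 and also dampens type I receptor signalling, had 220 and 157 counts in the invasive libraries and 190 and 89 in the control libraries. In CPM both invasive libraries lay above both controls, with control 2 the low library, and the ratio of invasive to control was 1.30 (1.07 to 1.59) in pair 1 and 1.97 (1.51 to 2.58) in pair 2. This was the largest positive difference of any tested member in pair 2, with a log2 fold change of 0.66 ± 0.21 (SE, edgeR adjusted p = 0.201) over both pairs, and leaving out 1 library at a time gave 0.23 to 1.14.

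The conjugating enzyme UBE2L6 and the ligases lay closer to equal between the groups. UBE2L6 had 82.8 and 68.6 CPM in the invasive libraries and 74.1 and 84.2 CPM in the control libraries, higher in invasive 1 and lower in invasive 2 than in the partner (log2 fold change -0.08 ± 0.13 SE, edgeR adjusted p = 0.76). HERC5, the main ISG15 ligase in human cells, and its neighbour HERC6 each had a log2 fold change of 0.03, made of 0.33 and -0.28 in the pairs for HERC5 and 0.34 and -0.29 for HERC6. These genes lie 14.0 kb apart on chromosome 4 and gave nearly the same values.

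The oligoadenylate synthetases make the second messenger that switches on RNase L. OAS1 (ENSG00000089127, chr12:112906777-112932185, plus strand) was the only tested member at least 2-fold different in the same direction in both pairs. Over all tested genes, 0.97% were at least 2-fold lower in pair 1 and 2.07% in pair 2, and the share in both pairs is not given here. OAS1 had 10 and 8 counts in invasive 1 and invasive 2, against 28 and 31 in control 1 and control 2. In CPM this is 0.647 and 0.578 in the invasive libraries, against 1.57 and 2.01 in the control libraries, a mean of 0.613 ± 0.0481 in invasive and 1.79 ± 0.308 in control libraries (SD, n = 2 each), and the groups lie well apart. The ratio was 0.402 (counting interval 0.174 to 0.853) in pair 1 and 0.287 (0.114 to 0.639) in pair 2. The log2 fold change was -1.54 ± 0.41 (SE, 95% interval -2.52 to -0.56, unadjusted p 0.00804, edgeR adjusted p = 0.148), so it did not pass the test at these low counts.

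The neighbours of OAS1 lay closer to equal between the groups. OAS3 begins 6.17 kb after OAS1 ends and had 31.2 and 25.9 CPM in the invasive libraries, against 29.4 and 30.5 CPM in the control libraries (log2 fold change -0.09 ± 0.13 SE, 95% interval -0.40 to 0.22). OAS2, 5.15 kb further on, had 3.49 and 2.75 CPM in the invasive libraries and 2.47 and 3.24 CPM in the control libraries. OAS1 took 1.83% (0.880 to 3.34) and 1.98% (0.859 to 3.86) of the counts of these 3 clustered genes in the invasive libraries, against 4.70% (3.14 to 6.72) and 5.62% (3.85 to 7.88) in the control libraries (Clopper-Pearson intervals). The catalytically inactive relative OASL had 26.7 and 20.9 CPM in the invasive libraries and 18.4 and 31.5 CPM in the control libraries. It was 1.42 (1.22 to 1.64) times its control in pair 1 and 0.662 (0.571 to 0.768) times its control in pair 2, so counting error is smaller than the disagreement between the pairs.

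The IFIT proteins bind viral RNA ends and lie in 1 cluster on chromosome 10. All 4 were higher in invasive 1 than in control 1, and IFIT1 and IFIT2 were also higher in invasive 2 than in control 2. Their log2 fold changes ran from -0.02 (IFIT3) to 0.25 (IFIT1), with no call. IFIT1 had 7.11 and 4.77 CPM in the invasive libraries and 6.40 and 3.56 CPM in the control libraries, so both libraries of pair 1 were above both of pair 2.

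The IFI genes held differences of either sign, and IFI6, IFI44L and IFI44 were chosen for their values. IFI6, a membrane protein that limits flavivirus replication and cell death, had 249 and 198 counts in the invasive libraries, against 138 and 153 in the control libraries. In CPM this is 16.1 and 14.3 in the invasive libraries, against 7.75 and 9.91 in the control libraries, with both invasive libraries higher. The ratios were 2.03 (1.64 to 2.52) in pair 1 and 1.44 (1.16 to 1.79) in pair 2. The log2 fold change was 0.78 ± 0.20 (SE, 95% interval 0.31 to 1.24, edgeR adjusted p = 0.137). Per length, IFI6 averaged 70.4 ± 6.25 TPM in invasive and 41.2 ± 7.07 TPM in control libraries.

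IFI44L and IFI44, related genes that lie 3.65 kb apart on chromosome 1, were both lower in each invasive library than in its control. IFI44L had 34.1 and 19.9 CPM in invasive 1 and invasive 2, against 46.4 and 28.4 CPM in control 1 and control 2. IFI44 had 45.1 and 35.7 CPM in the invasive libraries, against 52.6 and 47.0 CPM in the control libraries. For IFI44L the groups overlap because both pair 1 libraries were high. The log2 fold change of IFI44L was -0.49 ± 0.11 (SE, edgeR adjusted p = 0.128), with -0.47 and -0.51 in the pairs. In fits without the pairing that leave out 1 library, it was -0.94 without invasive 1, -0.81 without control 2, -0.16 without invasive 2 and -0.079 without control 1. That of IFI44 was -0.33 ± 0.11 (SE, edgeR adjusted p = 0.211), with -0.26 and -0.40 in the pairs, and leaving out 1 library at a time gave -0.51 to -0.17.

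SAMHD1, which hydrolyses deoxynucleotide triphosphates, had 57.5 and 58.4 CPM in the invasive libraries, against 69.9 and 69.0 CPM in the control libraries. The libraries of each group nearly coincide and the groups lie apart (log2 fold change -0.28 ± 0.10 SE, 95% interval -0.51 to -0.05, edgeR adjusted p = 0.219). The PARP genes and DTX3L, a ubiquitin ligase that works with PARP9, had small log2 fold changes of -0.20 to -0.04. All 4 were higher in invasive 1 and lower in invasive 2 than in the partner. The ratios in pair 1 were only 1.01 to 1.08, and each counting interval included 1. In pair 2 they were 0.722 to 0.878, and each interval lay below 1.

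LGALS3BP, a secreted glycoprotein and the most abundant member, had 333 and 257 CPM in the invasive libraries and 267 and 243 CPM in the control libraries. Invasive 1 was the high library (log2 fold change 0.18 ± 0.11 SE, 95% interval -0.07 to 0.44, edgeR adjusted p = 0.41). TRIM22, a ubiquitin ligase that restricts several viruses, had 74.9 and 82.3 CPM in the invasive libraries, against 62.8 and 93.9 CPM in the control libraries. The controls lay to either side of the invasive libraries, and the log2 fold change was 0.01 ± 0.12 (SE, edgeR adjusted p = 0.97), with its sign turned in some alternatives. XAF1, which antagonises the caspase inhibitor XIAP, had 26 and 13 counts in the invasive libraries and 12 and 26 in the control libraries. Its ratio of 2.44 (1.19 to 5.31) was the largest positive difference of any tested member in pair 1, and in pair 2 the ratio was 0.557 (0.263 to 1.12).

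The remaining 4 members were too low to test. IFI27 had 5 and 8 counts in the invasive libraries, against 2 and 4 in the control libraries, with ratios of 2.81 (0.461 to 29.5) and 2.23 (0.597 to 10.1) whose counting intervals include 1. RSAD2 (viperin) had 4 and 6 counts in the invasive libraries and 0 and 3 in the control libraries. BST2 (tetherin) had 4 and 1 counts in the invasive libraries and 1 and 2 in the control libraries, and CMPK2 had 6 and 0 in the invasive libraries and 3 and 7 in the control libraries. These 4 were among the least counted members. MX1, which was tested, had 22 and 26 counts in the invasive libraries and 29 and 32 in the control libraries. Per length it averaged 0.767 TPM in invasive and 0.867 TPM in control libraries.

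For most members the difference had opposite signs in the pairs. In pair 1, 30 of 37 tested members were higher in the invasive library (81.1%, beside 50.5% of all genes, with 49.5% lower), with a median log2 difference of 0.22 beside 0.00 for all genes. In pair 2, 9 of 37 were higher (24.3%, beside 51.1% of all genes, with 48.9% lower), with a median of -0.27 beside 0.01. The signs were opposite for 21 members (56.8%, beside 34.7%), and all 21 were higher in pair 1 and lower in pair 2, an order seen in 17% of all genes. These are signs alone, whatever the size of the difference. The counting intervals of the ratio excluded 1 in both pairs for some of the 21, such as OASL. They included 1 in both for others, such as DDX58 and IFIT3, and in pair 1 alone for others still, such as PARP12. Another 9 were higher in both pairs (beside 33.4%) and 7 lower in both (beside 31.9%). The members' medians kept these signs under every prior count, scaling and filter tried, at 0.15 to 0.25 in pair 1 and -0.25 to -0.30 in pair 2. Among tested members few differences reached 2-fold: IFI6 and XAF1 higher in pair 1 (beside 3.02% of all genes) and OAS1 lower in pair 1 (beside 0.97%) and pair 2 (beside 2.07%), with none higher in pair 2 (beside 4.31%).

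**Figure D4:**
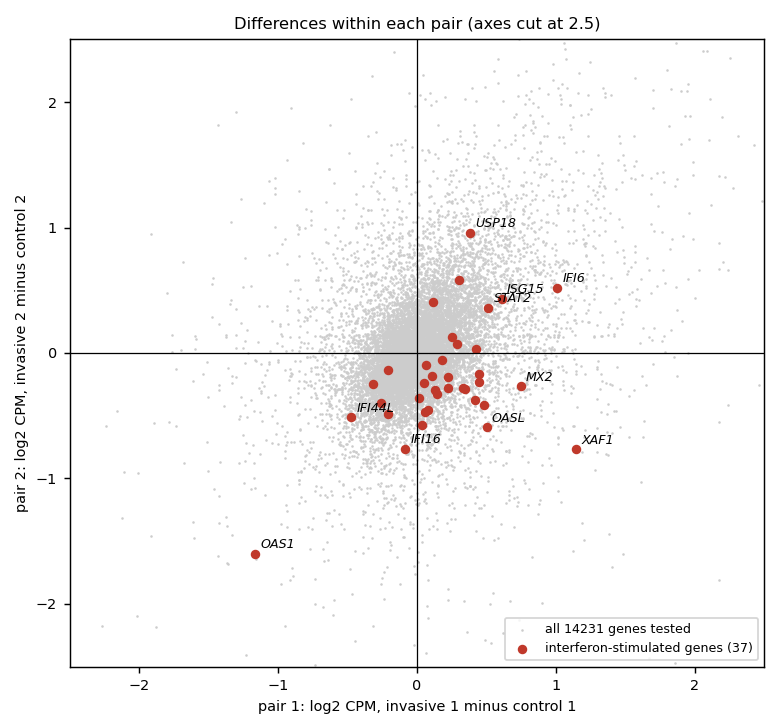
Log2 difference of invasive from control in pair 1 (horizontal) and pair 2 (vertical) for the 37 tested members, with all tested genes in grey. Of the members, 21 lie to the right of 0 and below 0, none lies to the left of 0 and above 0, and OAS1 lies at -1.16 and -1.60.

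The same 4 libraries can be set against each other within a group instead. These counts rearrange the values behind the signs above and are not independent of them. Invasive 2 was below invasive 1 for most members, with a median log2 difference of -0.15 and 9 of 37 above 0 (24.3%, beside 49.7% of all genes). Control 2 was above control 1, with a median of 0.23 and 27 of 37 above 0 (73%, beside 48.8%). Of the 37 tested members, invasive 1 held the highest CPM for 13 and invasive 2 for 2, against 4 for control 1 and 18 for control 2. Over all tested genes these shares were 26.5% and 28.1% for the invasive libraries and 19.9% and 25.6% for the control libraries. The lowest CPM fell in invasive 1 for 3 and invasive 2 for 12, against 18 for control 1 and 4 for control 2. Over all tested genes it fell in the invasive libraries for 20.4% and 27.3% and in the control libraries for 25.4% and 26.9%. Control 2 is the library with the high sum of NF-kB genes, with CSF3 at 327 and 176 counts in the invasive libraries, 460 in control 1 and 14002 in control 2. Of those genes, 10 of 11 tested were at least 2-fold lower in invasive 2 than in control 2 (beside 2.07% of all genes). Higher in pair 1 and lower in pair 2 were 8 of the 11 (beside 17% of all genes). The part of the NF-kB genes in the members' lower levels in invasive 2 was not tested. A test of whether the invasive effect differs between pairs could not be fitted, because 4 libraries leave no residual degrees of freedom for it.

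**Figure D5:**
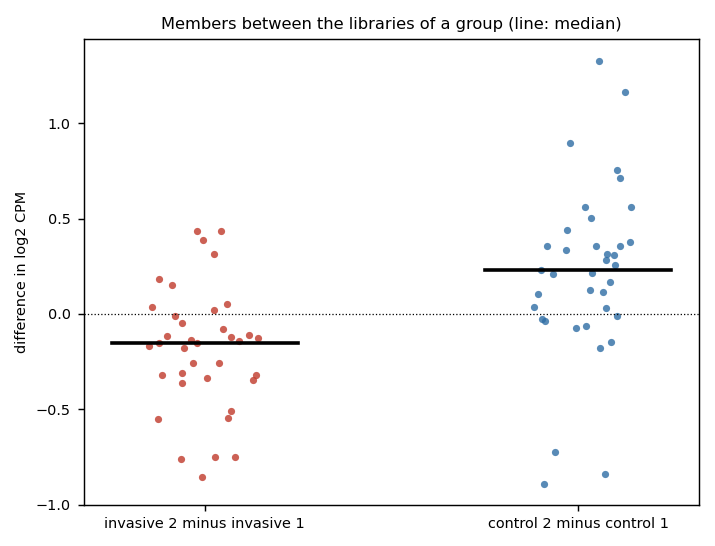
Log2 CPM difference between the libraries of each group for the 37 tested members, with the invasive group on the left and the control group on the right; the line is the median. The invasive median is -0.15 and the control median 0.23.

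Pair 2 against pair 1, with the group as a term, called none of the 37 members in edgeR's test, beside 0.0562% of all genes called higher and 0.0422% called lower, 0.0984% in all. At an unadjusted p under 0.05 there were 6 members (IFIT1, IFI44L, IFIH1, USP18, TRIM22 and LGALS3BP), beside 14.8% of all genes, and DESeq2 called none. IFI44L had the smallest adjusted p, 0.107, with a log2 difference of -0.75 ± 0.11 (SE, 95% interval -1.02 to -0.47) for pair 2 minus pair 1.

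Other interferon-inducible genes, 39 in number with 29 tested, likewise gave no call, with a median log2 fold change of -0.03. In pair 1, 21 of the 29 were higher in the invasive library (beside 50.5% of all genes), and in pair 2, 10 were (beside 51.1%). Of these 29, 13 were higher in pair 1 and lower in pair 2 (44.8%, beside 17% of all genes) and 2 the reverse (6.9%, beside 17.7%). PNPT1, a mitochondrial RNA exonuclease, had the smallest adjusted p of that list (edgeR, 0.0934) and is named for it, with 44.9 and 40.9 CPM in the invasive libraries, against 63.6 and 64.6 CPM in the control libraries. Both invasive libraries lay below both controls (log2 fold change -0.60 ± 0.10 SE). APOL1, an apolipoprotein of innate defence, had 45 and 18 counts in the invasive libraries and 70 and 64 in the control libraries. GBP5, a guanylate-binding protein, had 16 and 13 in the invasive libraries and 7 and 15 in the control libraries. CXCL10, a chemokine that interferons strongly induce, had 0 counts in every library.

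Of 16 sensors and adaptors outside the members, 13 were tested and none passed (median log2 fold change -0.10). AIM2, the cytosolic DNA sensor of an inflammasome, had 7.56 and 4.77 CPM in the invasive libraries, against 11.8 and 15.3 CPM in the control libraries. Both invasive libraries were lower, with a log2 fold change of -1.16 ± 0.27 (SE, edgeR adjusted p = 0.13). IRF5, a factor downstream of Toll-like receptors, went the other way at low counts, with 21 and 20 in the invasive libraries and 13 and 5 in the control libraries (log2 fold change 1.38 ± 0.49 SE, edgeR adjusted p = 0.223). The DNA sensor cGAS (MB21D1 in the tables) had at most 2 counts and its adaptor STING (TMEM173) had 2 to 6. Of 8 negative regulators of interferon signalling, 7 were tested and none passed (median -0.16). Among them SOCS3, a feedback inhibitor of cytokine receptors, had 66.2 and 48.3 CPM in the invasive libraries and 81.1 and 134 CPM in the control libraries, with control 2 the high library (log2 fold change -0.90 ± 0.37 SE, edgeR adjusted p = 0.362).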

How the data were processed

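Polyadenylated RNA of 4 U87MG populations was measured by strand-specific sequencing. Per the file headers, the authors deposited raw counts per Ensembl gene. They also deposited, per the labels, normalized values rounded to whole numbers, treated here as a score because no source used here states their method. The submitters' processing notes name the GRCh38 build and the tools DESeq2, HTSeq, Bowtie, bcl2fastq 1.8.4 and TopHat2 2.0.12, without a role for each. No source used here says whether reads were counted by strand.

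The 29387 genes listed for all 4 libraries were analysed. The other 6811 genes, listed for 1 pair, were left out and had at most 3 counts over pair 1 or 56 over pair 2. CPM was computed from the raw counts as deposited by the authors. TPM used exon-union lengths of GENCODE 29, a GRCh38 annotation. A low-count filter (filterByExpr in edgeR, minimum count 10, minimum total 15) left 14231 genes, among them 37 of the 41 members. IFI27, BST2, RSAD2 and CMPK2 did not pass it.

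Invasive and control libraries were compared by a two-sided quasi-likelihood F test in edgeR 4.0.16 (limma 3.58.1, R 4.3.3), with TMM scaling, a robust prior and Benjamini-Hochberg adjustment over all 14231 genes at 0.05. The pair entered as a block, since the series' design text ties each control to 1 invasive population. As a check of that pairing, the difference of pair 2 from pair 1 correlated between the groups over genes at r = 0.283. The fit has 1 residual degree of freedom, so each gene's spread leans on a prior worth 5.45 degrees of freedom. Its common coefficient of variation was 12.2%. A standard error (SE) is the log2 fold change over the root of F. Within a pair, log2 differences used TMM-scaled CPM with a prior count of 2, and ratios used the counts with exact binomial (Clopper-Pearson) 95% intervals, which cover counting error only. DESeq2 1.42.0 was an alternative. The fit was also run on simulated counts, where it called 33 of 13838 unchanged genes. It called 41 of 50 genes with a true log2 fold change of 1 and 35 of 49 with -1. At true changes of 2 and -2 it called 48 of 50 and 49 of 50.

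The members and lists were chosen with earlier results of these data known. By rule, full values were given for tested members that passed a test or differed at least 2-fold in the same direction in both pairs, for the 6 with the highest CPM, and for those with the largest positive and negative difference in each pair. All other members given in full were chosen after their values were seen. A gene of the receptor and JAK-STAT list is not reported here.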

Additional observations from a re-analysis of the deposited data

How the results depend on the processing

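Over all genes, calls of invasive against control (34 higher and 5 lower) moved to 2 and 0 with no replicate block, to 80 and 9 with RLE size factors, to 142 and 29 with DESeq2, to 760 and 693 with no filter on low counts (25577 genes tested) and to 368 and 91 with total counts as the only scaling, a setting chosen after seeing the data. Members, of which none was called, had 3 higher and 3 lower with no filter and 1 higher (STAT2) with total counts only, and no other setting called one; their smallest adjusted p was 0.301 with no block. With no filter, 1 gene of the sensor list, 3 of the other interferon-inducible genes and 1 of the NF-kB genes were called, and with total counts only 1 of the other interferon-inducible genes. The cause was not tested. Calls of pair 2 against pair 1 (8 higher and 6 lower) moved to 19 and 14 with RLE, 43 and 43 with DESeq2, 424 and 538 with no filter, where 2 members were lower, and 0 and 0 with no group term.

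Fits that leave out 1 library have no block and assume that the lone library varies like the others. They called 4 to 83 genes higher and 0 to 87 lower, the most without control 1, with 4 higher and 0 lower without control 2, and 0 members. Without control 1, 8 NF-kB genes and 1 negative regulator were called, against 0 of each in the other such fits. The members' median log2 fold change ran from -0.15 without control 1 to 0.11 without control 2.

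Of 333 fold changes of members under alternatives, 291 kept their sign and their side of the threshold, and 35, over 22 members, changed sign, none of them with a size above 0.36 in the main test. TRIM22 was at -0.012 with no block and at -0.011 with no filter, ISG20 at 0.062 with DESeq2 and DDX58 at 0.0020 with total counts only. With 1 library left out, the log2 fold change spanned 0 for DDX58 (-0.12 to 0.080), DDX60 (-0.55 to 0.0051), DTX3L (-0.15 to 0.061), HERC5 (-0.19 to 0.25), HERC6 (-0.22 to 0.28), IFI35 (-0.13 to 0.39), IFIH1 (-0.71 to 0.015), IFIT1 (-0.14 to 0.73), IFIT3 (-0.20 to 0.15), IFIT5 (-0.064 to 0.18), IRF9 (-0.48 to 0.49), ISG20 (-0.73 to 0.91), LGALS3BP (-0.017 to 0.36), MX2 (-0.21 to 0.72), OAS2 (-0.078 to 0.31), OAS3 (-0.24 to 0.036), OASL (-0.41 to 0.34), PARP9 (-0.48 to 0.086), TRIM21 (-0.28 to 0.081), TRIM22 (-0.27 to 0.29), UBE2L6 (-0.23 to 0.041) and XAF1 (-0.36 to 0.93). IFI16 (-0.82 to -0.049), IFI44L (-0.94 to -0.079) and USP18 (0.23 to 1.14) kept their sign but moved by over 1.5 times from the main value. So did IFI44 (-0.51 to -0.17), ISG15 (0.35 to 0.70), IRF1 (0.087 to 0.36) and IRF7 (0.29 to 0.60). MX1 (-0.40 to -0.00012), PARP12 (-0.29 to -0.062) and PARP14 (-0.39 to -0.020) did too. OAS1 (-1.71 to -1.38), IFI6 (0.61 to 0.94), STAT2 (0.33 to 0.53), SAMHD1 (-0.30 to -0.26) and IFIT2 (0.14 to 0.25) stayed within 1.5 times of it.

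Within pairs, a prior count of 5 left 0 members at least 2-fold higher and 0 lower in pair 1. The deposited normalized values, with a pseudocount of 1, cover 10252 genes and 26 members. They gave 74 genes at least 2-fold higher and 14 lower in pair 1, 178 and 138 in pair 2, with 0 members higher or lower in either, and 3156 genes higher in both pairs. With no filter, the counts were 1512 and 555 genes in pair 1, with 4 members higher, 1776 and 1196 in pair 2, with 2 members lower, and 7929 genes lower in both pairs. Counts of members higher or lower in both pairs stayed within 1.5 times under every setting. OAS1 (8 to 31 counts), XAF1, IRF9 and ISG20 are limited by depth.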
